A study of Mus musculus with 26 samples.

Results

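The Myc network was followed here as 10 genes chosen by name, Myc, Mycn, Mycl, Max, Mxi1, Mxd1, Mxd4, Mnt, Mga and Mlx, and 9 of the 10 had 1 listed transcript each in both cell types. Mycn was not listed for either cell type and was not analysed here. These 9 transcripts stood among 8530 transcripts listed for oligodendrocyte progenitor cells (OPCs) and 9751 listed for oligodendrocytes (OLs), of which 8177 were listed for both. The set was chosen with 1 of its values in view, the slope of Mycl during the chase in OLs, so every value of Mycl that draws on OL libraries is given as a description with no test.

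The OPCs were 129S/SvEv mouse cells derived from epiblast stem cells and grown with bFGF and PDGFA, and the OLs were differentiated from such OPCs in medium with T3 (thyroid hormone), noggin, IGF-1, cyclic AMP and NT3. Both were labelled for 24 h with 5-ethynyluridine (5-EU), a uridine analogue to which biotin can be coupled, and labelling of the OLs began after 40 h of differentiation. RNA was taken at 0, 1, 2, 4 and 6 h after 5-EU was replaced by uridine, and labelled RNA was captured on streptavidin beads and sequenced, in 3 OPC replicates (15 libraries) and 2 OL replicates (10 libraries). Each time point was its own dish. All cells were cultured and derived from stem cells, and the OLs shared their starting cells with 2 of the OPC replicates, whose numbers are not given in the sources used here, so the replicates are cultures of a derived line and not animals.

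Levels are in FPKM, a read count divided by transcript length and by the size of the library, and the number of reads behind a value is unknown. The study's methods describe scaling to labelled spike-in RNA for every time point, but the 0 h values keep the decimals of the counting tool and were read here as unscaled. On that reading, which was not checked another way, a 0 h level is a share of the labelled RNA of its library, and every comparison at 0 h rests on it. Transcripts with no reads at 1 or 2 h were left out of the tables, so ranks and percentiles do not cover the fastest losses. All 6 OL markers were listed for OLs, with 2775 to 6029 FPKM in sum at 0 h, and 2 of 6 were listed for OPCs (Mbp and Cnp), with 37.6 to 55.1 FPKM. All 5 OPC markers were listed for both, with 1505 to 1687 FPKM in OPCs and 897 to 1060 FPKM in OLs, of which Pdgfra, the receptor for PDGFA that defines OPCs, ran from 11.5 to 26.5 FPKM in OPCs and from 43.9 to 66.9 FPKM in OLs. Of 4 markers of dividing cells, 4 were listed for OPCs (191 to 320 FPKM in sum) and 3 for OLs (21.1 to 53.5 FPKM). Of 4 astrocyte markers 1 was listed for OPCs (22.9 to 37.0 FPKM) and 3 for OLs (85.9 to 106 FPKM), of 4 neuron markers 1 (13.2 to 17.4 FPKM) and 2 (25.9 to 27.7 FPKM), and none of 4 microglia or 3 pluripotent cell markers was listed. In such bulk samples fewer cells of a type and less RNA per cell cannot be told apart.

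Myc and its relatives Mycn and Mycl are transcription factors that bind DNA as dimers with Max and raise the transcription of genes for growth, ribosome production and division. Mxd1, Mxi1, Mxd4 and Mnt also dimerise with Max and recruit Sin3 co-repressors, so they oppose Myc at shared sites, and Mga is a further Max partner found in a repressive complex. Mlx pairs with some of the Mxd proteins and with the glucose-responsive Mlxip and Mlxipl. Myc is highly expressed in dividing progenitors, its mRNA is known for a very short life, and its decline accompanies the exit of OPCs from the cell cycle.

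The listed transcripts were matched by identifier to a later GENCODE release of the same genome build (M21, GRCm38). Myc (ENSMUST00000022971) lies at chr15:61985391-61990350 on the forward strand, with 3 exons, a coding sequence annotated from a CTG codon and a 3′ untranslated region (3′ UTR) of 442 bases. Mycl (ENSMUST00000030407) lies at chr4:122996099-123002485 on the forward strand, with 2 exons and a 3′ UTR of 1970 bases. Max (ENSMUST00000110395) lies at chr12:76937269-76962185 on the reverse strand, with 5 exons and a 3′ UTR of 1299 bases. Among the antagonists Mxd1 (ENSMUST00000001184) lies at chr6:86647042-86669161 and Mxd4 (ENSMUST00000042701) at chr5:34173887-34187710, both on the reverse strand, and Mxi1 (ENSMUST00000025998) at chr19:53329458-53375810 and Mnt (ENSMUST00000000291) at chr11:74830920-74845725, both on the forward strand. Mga (ENSMUST00000110774) at chr2:119897228-119969581 and Mlx (ENSMUST00000017945) at chr11:101087300-101092207 are on the forward strand too. Exons of Mlx share 385 bases with Psmc3ip on the opposite strand, those of Mxd4 share 514 bases with Gm42846 and those of Mxi1 share 194 bases with Gm10197. The study's code passes no strand option to the aligner or to the counting tool, so reads of these 3 pairs cannot be told apart where the exons overlap, and the values of Mlx, Mxd4 and Mxi1 are uncertain to that extent.

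The 3′ UTR of Myc differed from those of the other members in length and composition. It was the shortest of the 9, where the others ran from 1042 bases (Mlx) to 4616 bases (Mga), and 70.1% of its bases were A or U, against a median of 55.7% over the transcripts listed for either cell type. The motifs searched, all on the sense strand, were ATTTA (the core of AU-rich elements, counted with overlaps), TTATTTATT (a longer form that holds ATTTA) and TGTANATA with N any base (the letters bound by Pumilio proteins). The Myc 3′ UTR held 2 ATTTA, and of 1100 3′ UTRs within 25% of its length 46.4% held at least 1. It also held 2 TGTANATA, where 11.5% of 3′ UTRs of that length held at least 1 and 2.36% at least 2. The Mycl 3′ UTR held 2 ATTTA and no TGTANATA, and 90.4% of 1868 3′ UTRs of similar length held ATTTA. The longer TTATTTATT was in none of the 9 members and in 3.27% to 19.7% of 3′ UTRs of their lengths. The following stretches of 30 bases, written 5′ to 3′ as DNA with the motif in capitals, show these letters in Myc, Mycl and Max. The first and the second are from Myc, at chr15:61990194-61990223 with both TGTANATA matches and at chr15:61990134-61990163 with 1 ATTTA. The Mycl stretch, at chr4:123002383-123002412, holds both of its ATTTA, and the Max stretch, at chr12:76937610-76937639, holds 1 of its 2 TGTANATA.
Myc, TGTANATA: aTGTAAATAgggccttgaaaTGTAAATAac
Myc, ATTTA: ttaacagatttgtATTTAattgttttttta
Mycl, ATTTA: gtgcATTTAcctgaaattttgtATTTAgtt
Max, TGTANATA: actattttgtaTGTAAATAccaagagcgac

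Among the other members Mxi1 held 9 ATTTA, Mxd1 and Mga 5 each, Mlx 2, and Max and Mnt 1 each. Mxd4, with a 3′ UTR of 3105 bases, held none, where 96.2% of 1481 3′ UTRs of similar length held at least 1. TGTANATA was found in Max (2), Mxd1 (2), Mga (3) and Mnt (1) and not in Mxi1, Mxd4 and Mlx. These matches are letters in a sequence and no binding was measured. The study asked about the choice between UUU and UUC for phenylalanine and between AAA and AAG for lysine. Myc used UUU for 21.4% and Mycl for 11.1% of their phenylalanine codons, both below the median of 44.4% over all transcripts, and AAA for 33.3% and 42.9% of their lysine codons, where the median was 37.5%. Mga used UUU for 68.9% and AAA for 57.7%, the highest share of AAA among the members, and Mxd4 used UUU for 25% and AAA for 23.1%. The shares of UUU and AAA were 66.7% and 45.5% for Max, 66.7% and 20% for Mnt and 0% and 33.3% for Mxd1. They were 33.3% and 54.5% for Mxi1 and 30% and 30% for Mlx. Coding sequences ran from 161 codons (Max) to 3043 (Mga), so shares in the shorter ones can rest on few codons.

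Which of the network's transcripts were labelled in each cell type was asked of the 0 h libraries. Myc was the most highly labelled member in OPCs and Mycl in OLs. By limma on log2(FPKM + 1), with p-values adjusted over all 8177 transcripts, Myc was lower in OLs and the antagonists Mxi1, Mxd1 and Mxd4 were higher. Max, Mnt, Mga and Mlx did not pass the threshold of 0.05. These were 3 members higher and 1 lower of the 8 that were tested, where 13.8% of all transcripts were called higher and 15.8% lower. Replicates did not overlap for 3 of the 8 that were higher (28% of all transcripts) and 2 that were lower (31.4%). The median change over the 8 was 0.49 on the log2 scale, beside -0.01 over all transcripts.

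Myc, the founding member, had 104.8, 140.0 and 104.5 FPKM at 0 h in OPC replicates 1, 2 and 3 and 47.4 and 64.9 FPKM in OL replicates 1 and 2. Both OL values lay below all 3 OPC values, at 116 ± 20.4 FPKM (SD, n = 3) in OPCs and 56.1 ± 12.4 FPKM (SD, n = 2) in OLs. The log2 change was -1.04 ± 0.25 (SE, limma adjusted p 0.0178), and it was -1.11 (adjusted p 0.0526) without OPC replicate 3 and -0.82 (adjusted p 0.137) without OL replicate 1. The summed level of the division markers moved in the same direction, and its part in the result was not tested.

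Mycl, a relative of Myc, showed the opposite order. It had 11.6, 10.3 and 12.4 FPKM in the OPC replicates and 94.8 and 72.5 FPKM in the OL replicates. The groups lay far apart, at 11.4 ± 1.09 FPKM (SD, n = 3) and 83.6 ± 15.8 FPKM (SD, n = 2), a log2 difference of 2.76 that is a description, since the 0 h libraries enter the slope that was in view. Of the FPKM of Myc and Mycl together, Mycl made up 9.99%, 6.84% and 10.6% in the successive OPC replicates, against 66.7% and 52.8% in those of OLs. Their sum was 116, 150 and 117 FPKM in OPCs and 142 and 137 FPKM in OLs, which overlap.

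Max, the shared partner, differed little between the cell types, with 30.4, 36.4 and 33.5 FPKM in OPCs and 28.3 and 33.1 FPKM in OLs. The values overlap, and the log2 change was -0.12 ± 0.22 (SE, limma adjusted p 0.707).

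Of the 4 antagonists 3 were higher in OLs, and Mnt did not pass the test. Mxi1 had 4.79, 5.46 and 5.51 FPKM in the OPC replicates and 16.6 and 15.8 FPKM in the OL replicates (log2 change 1.46 ± 0.21, SE, limma adjusted p 0.00194). Its call held under every alternative that kept it in the table, with adjusted p from 0.00146 to 0.0262 (the filter of 5 FPKM dropped it). Mxd4 had 31.2, 22.3 and 25.7 FPKM in OPCs and 58.3 and 61.0 FPKM in OLs, and its log2 change was 1.16 ± 0.23 (SE, limma adjusted p 0.00824). Mxd1 had 4.13, 5.07 and 5.20 FPKM in OPCs and 10.1 and 10.5 FPKM in OLs, which is 0.97 ± 0.21 on the log2 scale (SE, limma adjusted p 0.0124). For each of the 3 both OL values lay above all OPC values. The summed levels of the OL and astrocyte markers were also higher in OLs, and their part in these results was not tested. Leaving out OL replicate 1 or 2 took Mxd4 to an adjusted p of 0.0590 or 0.0581 and Mxd1 to 0.0737 or 0.0739. Mnt, a widely expressed repressor, was the lowest member, with 3.05, 3.43 and 2.75 FPKM in OPCs and 3.26 and 3.91 FPKM in OLs, which overlap (log2 change 0.17 ± 0.21, SE, limma adjusted p 0.574). In sum the 4 antagonists came to 0.371, 0.242 and 0.335 times the sum of Myc and Mycl in the successive OPC replicates, and to 0.621 and 0.664 times in OLs.

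Mlx and Mga, the members outside the Myc and Mxd groups, did not pass the test. Mlx had 34.2, 21.004 and 26.8 FPKM in OPCs and 15.7 and 16.2 FPKM in OLs, both below all OPC values (log2 change -0.72 ± 0.25, SE, limma adjusted p 0.0662). It passed without OPC replicate 2 (adjusted p 0.0309) and with a filter of 5 FPKM (0.0450), which leaves fewer transcripts to adjust over. Mga had 4.84, 18.7 and 13.3 FPKM in OPCs and 18.1 and 21.2 FPKM in OLs. OPC replicate 1 was low for Mga, and the log2 change was 0.80 ± 0.46 (SE, limma adjusted p 0.221), which became 0.29 without that replicate and 1.17 without OPC replicate 2.

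**Figure D1:**
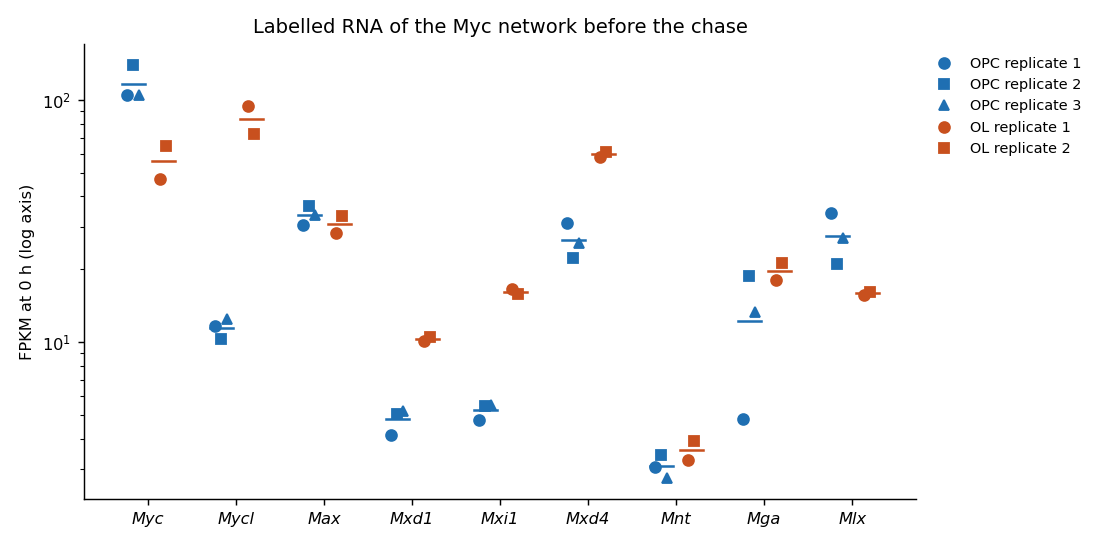
FPKM at 0 h (log axis) of the 9 listed members in 3 OPC replicates (blue) and 2 OL replicates (orange), where each point is 1 library and each bar the mean of its group. Myc is highest in OPCs at 116 FPKM and Mycl is highest in OLs at 83.6 FPKM, while Max overlaps between the cell types.

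How fast the labelled transcripts were lost was read from their level as a percentage of 0 h. Myc fell early in OPCs and then stayed nearly level. In OPC replicate 1 it was at 22.1%, 9.41%, 11.7% and 10.0% of 0 h after 1, 2, 4 and 6 h. For replicate 2 the values were 36.4%, 6.14%, 6.51% and 4.82%, and for replicate 3 they were 43.9%, 15.2%, 9.24% and 12.7%. At 2 h these levels lay in the lowest 3.36%, 0.387% and 2.27% of all transcripts of their libraries, whereas at 6 h they lay at the 38.7, 29.1 and 39.5 percentiles. Between 2 and 6 h Myc kept 107%, 78.5% and 83.1% of its level in these replicates, where the median transcript kept 32.0%, 17.1% and 27.7%. Of all transcripts 0% were listed at 0 at 2 h, but 15.7%, 21.6% and 16.4% at 6 h. Those count below Myc in the percentiles and enter the medians. Myc itself was at 10.5, 6.74 and 13.2 FPKM at 6 h.

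In OLs the replicates disagreed about the later course of Myc. OL replicate 1 went to 28.8%, 24.1%, 32.2% and 47.0% of 0 h at 1, 2, 4 and 6 h, and OL replicate 2 to 66.9%, 43.9%, 35.0% and 17.0%. From 2 to 6 h Myc thus rose to 195% in OL replicate 1 and fell to 38.7% in OL replicate 2, beside medians of 48.9% and 62.2%. At 2 h both OL values lay above all 3 OPC values, and the share of all transcripts for which this held was not counted.

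Mycl kept falling throughout in OLs, as the choice of the set implies. It was at 47.6%, 37.8%, 10.3% and 6.54% of 0 h in OL replicate 1 and at 93.9%, 42.5%, 9.17% and 4.97% in OL replicate 2. Its level at 6 h lay at the 6.99 and 2.11 percentiles of all transcripts. In OPCs Mycl went to 41.8%, 38.2%, 13.8% and 9.87% in replicate 1, to 113%, 82.1%, 8.75% and 16.2% in replicate 2 and to 74.1%, 45.7%, 5.98% and 11.97% in replicate 3. These values lay near the middle of the transcripts at 2 h in OPC replicate 2 (48.7 percentile) and lower in OPC replicates 1 and 3 (31.5 and 21.5).

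Max fell late in OPCs. At 2 h it was at 62.2%, 77.2% and 74.7% of 0 h in the OPC replicates, beside medians of 54.7%, 83.3% and 72.0%. At 6 h it was at 6.74%, 3.09% and 2.69% of 0 h in the OPC replicates and at 15.8% and 30.3% in the OL replicates, where all OPC values lay below both OL values. Mxd1 was at 7.09% in OPC replicate 2 and listed at 0 in OPC replicates 1 and 3 at 6 h, and at 11.99% and 13.6% in OLs. Mnt, at the lowest level, was listed at 0 at 6 h in OPC replicate 1, at 15.6% and 13.0% in the other OPC replicates and at 52.4% and 24.7% in OLs. Such zeros were common among OPC transcripts at 6 h, making up 15.7%, 21.6% and 16.4% of those listed for replicates 1, 2 and 3. For OL replicates 1 and 2 the shares were 4.08% and 0.79%. How far the zeros of Mxd1 and Mnt reflect loss of RNA was not tested. Mga ended at 20.3%, 9.67% and 20.5% in OPCs and 15.7% and 18.3% in OLs, which overlap. For Mxi1 the 6 h values were 16.6%, 6.49% and 17.2% in OPCs and 32.6% and 28.6% in OLs, for Mxd4 they were 11.4%, 15.6% and 24.7% against 22.3% and 21.2%, and for Mlx 9.79%, 21.4% and 14.6% against 25.9% and 37.2%. All transcripts together were at a median of 14.4%, 11.0% and 17.7% at 6 h in OPCs and 31.5% and 36.6% in OLs.

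**Figure D2:**
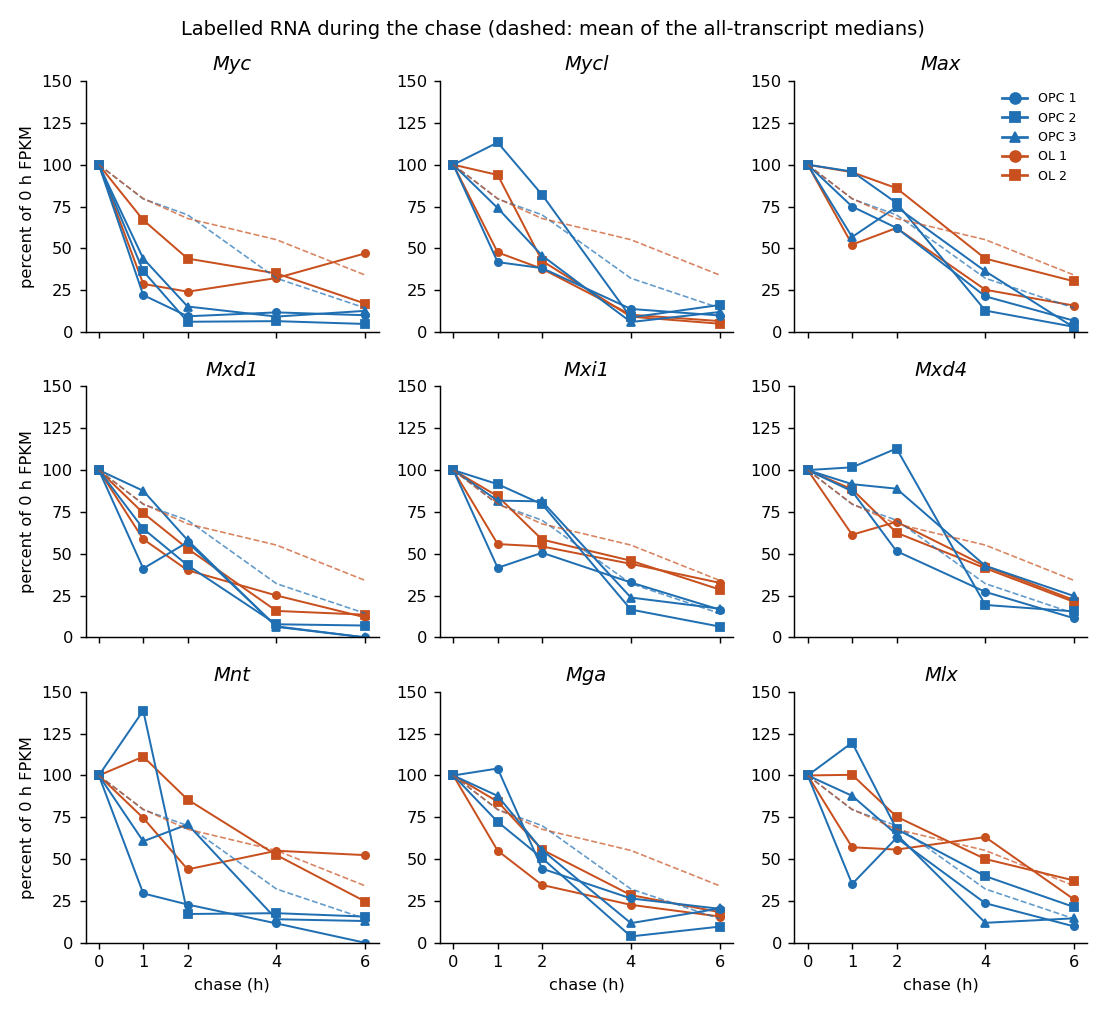
Level of each member as a percentage of its 0 h FPKM (vertical axis) against hours of chase (horizontal axis), with 1 line per replicate, OPCs in blue and OLs in orange, and the mean over replicates of the all-transcript median dashed. In OPCs Myc is at 6.14% to 15.2% by 2 h and stays near there, while the median is still at 54.7% to 83.3%.

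Ratios between members of 1 library do not depend on the spike-in scale, which multiplies every transcript of that library. The ratio of Myc to Max FPKM fell and then rose in OPCs, from 3.45, 3.84 and 3.12 at 0 h to 0.522, 0.306 and 0.637 at 2 h and to 5.14, 5.98 and 14.7 at 6 h. All 3 OPC replicates thus had their lowest ratio at 2 h. In OL replicate 1 it went from 1.67 to 0.649 and 4.98 at the same times, and in OL replicate 2 from 1.96 to 1.0001 and 1.097. Max was at 0.899 to 2.05 FPKM in OPCs at 6 h, so that the high ratios there rest on a small denominator. The share of Mycl in the sum of Myc and Mycl rose to 31.1%, 49.5% and 26.3% at 2 h in OPCs and was 9.84%, 19.8% and 10.1% at 6 h. In OLs it went from 66.7% and 52.8% at 0 h to 75.8% and 52.0% at 2 h and to 21.8% and 24.7% at 6 h.

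**Figure D3:**
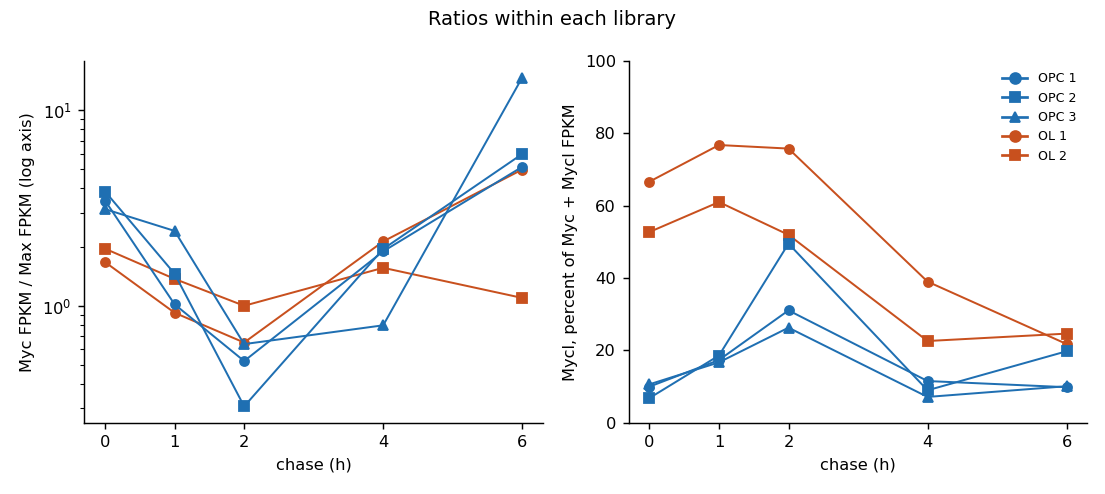
Left, Myc FPKM over Max FPKM (log axis), and right, Mycl as a percentage of Myc plus Mycl FPKM, against hours of chase, with 1 line per replicate, OPCs in blue and OLs in orange. The Myc to Max ratio is lowest at 2 h in all 3 OPC replicates (0.306 to 0.637), and the Mycl share in OLs ends at 21.8% and 24.7%.

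The fall of each member was tested by limma as a slope of log2(FPKM + 1) over chase time, which is less steep for a transcript of low level. A common slope was fitted to all libraries of a cell type, with replicate intercepts. Its p-value measures the scatter of the libraries about that slope and not the spread between cultures. All 9 members fell in OPCs, where 81.7% of all transcripts (6966, beside 368 that rose) did, with slopes from -0.65 log2 units per h (Max) to -0.28 (Mnt), and a median of -0.43 beside -0.38 over all. This order depends on the setting. Over the alternatives the OPC slope ran from -0.86 to -0.32 for Mxd1, from -0.76 to -0.25 for Max and from -0.56 to -0.088 for Mnt. All 8 members that were tested fell in OLs, where 68.4% of all transcripts (6668, beside 146 that rose) did, with slopes from -0.39 (Mxd1) to -0.16 (Mnt). Without the 6 h libraries 6 of the 8 passed, and Mnt (adjusted p 0.0566) and Mlx (0.0573) did not. When each library was scaled to the median of its 0 h library, 2166 transcripts fell and 2904 rose in OPCs and 1962 fell and 2963 rose in OLs. On that scale 2 of 9 members (Max and Mxd1) fell in OPCs and 3 of 8 (Mxd1, Mxd4 and Mga) in OLs. Myc had a slope of -0.51 ± 0.10 log2 units per h (SE, limma adjusted p 0.000145) in OPCs and of -0.23 ± 0.08 (SE, limma adjusted p 0.0169) in OLs. The OL value was -0.08 (adjusted p 0.450) without OL replicate 2, and under the median scale it was -0.02 in OPCs (adjusted p 0.897) and 0.02 in OLs (adjusted p 0.845). The OPC slope of Mycl was -0.45 ± 0.06 (SE, limma adjusted p 3.1e-06).

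Whether the slopes differ between the cell types was tested on 1 slope per replicate. Max was the 1 member of 8 past the threshold, with a slower fall in OLs, where 23.7% of all transcripts were called slower and 0.0856% faster. Its slopes of -0.57, -0.76 and -0.63 log2 units per h in OPCs and -0.39 and -0.30 in OLs do not overlap. The OL slopes lay above all OPC slopes for 4 of the 8 members (Max, Myc, Mlx and Mnt). The share of all transcripts for which this held was not counted. For Max the OL value minus the OPC value came to 0.31 ± 0.08 (SE, limma adjusted p 0.0214), beside a median of 0.14 over all transcripts. It did not pass without OL replicate 1 (0.36, adjusted p 0.109) or 2 (0.27, 0.177), without the 6 h libraries (0.15, 0.466), with a pseudocount of 0.1 (0.40, 0.0723) or under the median scale (0.15, 0.288). Myc had slopes of -0.42, -0.64 and -0.47 in OPCs and -0.08 and -0.38 in OLs, a difference of 0.28 ± 0.10 (SE, limma adjusted p 0.0616), which was 0.49 (adjusted p 0.0180) without the 6 h libraries and 0.33 (adjusted p 0.0297) without OPC replicate 1. For Mlx the difference was 0.21 ± 0.08 (SE, limma adjusted p 0.0646), and 0.25 (adjusted p 0.0404) without OPC replicate 2. The slopes of Mycl, given as a description, were -0.40, -0.47 and -0.48 in OPCs and -0.63 and -0.75 in OLs, the reverse order.

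The half-lives that the authors fitted to each replicate, capped at 6 h, place Myc among the shortest-lived transcripts in OPCs. Myc had 0.459, 0.686 and 0.843 h in OPCs, with ranks of 82, 26 and 284 from the shortest among 8491 transcripts, and 0.975 and 2.34 h in OLs, with ranks of 525 and 2195 among 9698. Over all transcripts the medians of the same replicates were 2.33, 2.05 and 2.79 h (OPCs), and 4.15 and 4.05 h (OLs). A single exponential does not describe the level course of Myc after 2 h in OPCs, so that its half-life there is that of the early fall. Refits by least squares gave 0.492, 0.638 and 0.836 h in OPCs and 0.974 and 2.098 h in OLs.

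Mycl had half-lives of 1.3995, 2.28 and 1.77 h in OPCs and 1.22 and 1.62 h in OLs, which overlap. In OLs these lay at the 9.87 and 7.40 percentiles, and in OPCs at the 23.7, 54.5 and 23.2 percentiles. In OLs the mean half-life of Mycl (1.42 ± 0.284 h, SD, n = 2) was the shortest among the members, followed by Myc (1.66 ± 0.969 h), Mxd1 (1.80 ± 0.400 h) and Mga (1.84 ± 0.751 h), whose replicates overlap with one another. Then came Max (2.87 ± 0.870 h), Mxd4 (3.10 ± 0.209 h), Mxi1 (3.35 ± 0.0358 h), Mlx (3.64 ± 0.799 h) and Mnt (4.47 ± 0.243 h). Mnt had the longest deposited half-lives in OLs, at 4.64 and 4.29 h, both above those of all other members, which was not so in refits. By least squares Mnt had 4.01 and 4.51 h and Mlx 4.52 h in OL replicate 2, and without the 6 h libraries Mnt had 2.37 h in OL replicate 1.

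The order in OPCs began with Myc (0.662 ± 0.193 h, SD, n = 3), followed by Mnt (1.402 ± 0.755 h), Mxd1 (1.53 ± 0.473 h) and Mycl (1.82 ± 0.444 h). The remaining members lay between 2.13 h (Mga) and 2.53 h (Mxd4), with replicates that overlap. Myc overlapped only with Mnt in OPCs, where Mnt had 0.568, 1.60 and 2.04 h.

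By limma on log2 half-life over 8112 transcripts, 0 of the 8 tested members differed between the cell types at an adjusted p under 0.05, where 3.39% of all transcripts were called longer and 0.148% shorter in OLs. An unadjusted p under 0.05 was found for 1 of the 8 (Mxi1) and for 1866 of all transcripts. Replicates did not overlap, and were longer in OLs, for 4 of the 8 (Myc, Mxi1, Mnt and Mlx), as for 35.9% of all transcripts. Mxi1 and Mlx overlapped in both refits, by least squares and without 6 h, and Myc and Mnt did not. The log2 change was 1.23 ± 0.54 (SE, limma adjusted p 0.308) for Myc, and it was 1.87 without OL replicate 1, 0.60 without OL replicate 2 and 0.33 with half-lives centred on the median of each replicate. For Mnt it was 1.86 ± 0.68 (SE, limma adjusted p 0.240), the highest of the members, and 0.96 when centred in this way. Mnt was at 2.75 to 3.43 FPKM at 0 h in OPCs, and the filter of 5 FPKM dropped it and left 4 members to test in half-life. Mxi1, with 2.32, 1.96 and 2.36 h in OPCs and 3.37 and 3.32 h in OLs, changed by 0.60 ± 0.10 (SE, limma adjusted p 0.0846), and passed with adjusted p 0.0379 without OPC replicate 2. The median over the 8 was 0.48, beside 0.37 over all transcripts. With half-lives divided by the median of their replicate, the all-transcript median became -0.53, which turned Max, Mxi1, Mxd1, Mxd4 and Mlx to a shorter half-life in OLs, none past the threshold. Mga changed by -0.27 ± 0.31 (SE, limma adjusted p 0.721), and by -1.18 (adjusted p 0.0509) when centred in this way.

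The value of 1.96 h occurred 5 times among the members, for Max in OPC replicates 1 and 2, for Mxi1 and Mga in OPC replicate 2 and for Mxd1 in OPC replicate 3. A fit by least absolute deviations returns 1.957 h, whatever the levels, for a transcript that lies above the fitted curve at 1 and 2 h and below it at 4 and 6 h. Within 0.0005 h of this value were 184, 2174 and 632 transcripts in the successive OPC replicates (2.17%, 25.6% and 7.44%), but 46 and 134 in those of OLs (0.474% and 1.38%). Equal half-lives of members at this value are therefore no sign of an equal course. Refitted by least squares they became 2.13 and 2.40 h for Max, 2.52 h for Mxi1, 1.66 h for Mga and 1.88 h for Mxd1.

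**Figure D4:**
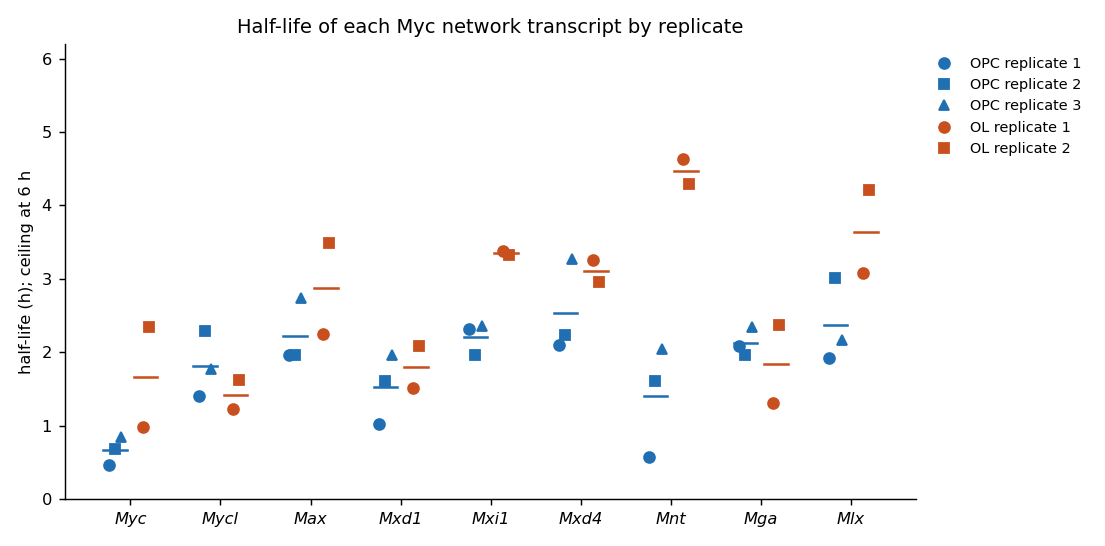
Half-life in hours of each member in 3 OPC replicates (blue) and 2 OL replicates (orange), where points are replicates, bars are means and the ceiling is 6 h. Myc is lowest in OPCs at 0.459 to 0.843 h, and in OLs Mnt, the member with the lowest FPKM, is highest at 4.29 and 4.64 h.

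The wider pathway was described by lists of genes by role. Of 31 genes known to be activated by Myc, 30 were listed for both cell types, and at 0 h 16 were lower in OLs and 0 higher, where 15.8% of all transcripts were called lower. Their median log2 change was -0.84. The count was 10 without OPC replicate 3, where the calls lower over all 8177 transcripts also went from 1294 to 641. It was lower again without either OL replicate, which leaves 1 OL library. Ccnd2, a cyclin of the G1 phase, had means of 181 FPKM in OPCs and 14.3 FPKM in OLs (log2 change -3.62 ± 0.29, SE, limma adjusted p 0.000237). Shmt1, an enzyme of one-carbon metabolism, had 27.1 and 1.93 FPKM (-3.26 ± 0.22, adjusted p 0.000132), and Cad, which starts pyrimidine synthesis, had 73.4 and 16.7 FPKM (-2.07 ± 0.20, adjusted p 0.000377). These 3 kept their calls in all alternatives that kept them in the table (the filter of 5 FPKM dropped Shmt1). In half-life 0 of the 30 were called by limma, where 3.39% of all transcripts were called longer and 0.148% shorter. An unadjusted p under 0.05 was found for 2 of the 30 and for 1866 of all 8112 transcripts. But 10 of the 30, Ccnd2 among them, were at the 6 h ceiling in every replicate of both cell types and could show no change. By the chase slope, which has no ceiling, 5 of the 30 fell more slowly in OLs and 0 faster, with a median difference of 0.08 log2 units per h beside 0.14 over all transcripts, of which 23.7% were called slower. The division markers were lower in OLs too, as given above, and their part in the list's result was not tested.

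Of 19 cofactors and co-repressors, 16 were tested, and 4 were lower and 0 higher in OLs at 0 h, where 15.8% of all transcripts were called lower and 13.8% higher. Their median log2 change was -0.27, beside -0.01 over all. Hcfc1, a chromatin cofactor of Myc, had means of 30.2 FPKM in OPCs and 9.25 FPKM in OLs (log2 change -1.60 ± 0.22, SE, limma adjusted p 0.00183). Ruvbl2, a helicase of chromatin complexes, and Kat2a, a histone acetyltransferase, were lower too (-1.27 and -1.08, limma adjusted p 0.0190 and 0.00979), but without OL replicate 1 their adjusted p were 0.0520 and 0.0847. Ruvbl2 also missed the threshold without OPC replicate 3 (adjusted p 0.0666) and without OL replicate 2 (-0.97, adjusted p 0.142). The same list held the 2 genes of the lists that passed in half-life. Paf1, of an elongation complex, had mean half-lives of 1.94 h in OPCs and 5.26 h in OLs (log2 change 1.44 ± 0.08, SE, limma adjusted p 0.0186), and its chase slope was also slower in OLs (0.50 ± 0.10 log2 units per h, limma adjusted p 0.00741). Hdac2, a histone deacetylase of the Sin3 complex, was at the 6 h ceiling in all 3 OPC replicates and had a mean of 3.24 h in OLs (-0.89 ± 0.07, SE, limma adjusted p 0.0315). The ceiling leaves its OPC values no spread, so this SE and p rest on a capped measure, and its chase slope did not pass (-0.14 ± 0.08 log2 units per h, limma adjusted p 0.196). Leaving out any 1 OPC replicate took both above the threshold, with adjusted p from 0.0568 to 0.0695 for Paf1 and from 0.0893 to 0.103 for Hdac2. Both calls were also lost with half-lives centred on the median of each replicate (0.54 and -1.80, adjusted p 0.206 and 0.0509), and in refits without the 6 h libraries (0.82 and -0.76, adjusted p 0.254 and 0.270) or by least squares (adjusted p 0.119 and 0.141).

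Among 9 genes for the turnover of Myc protein 8 were tested, of which 4 were lower and 0 higher in OLs at 0 h, against the same 15.8% and 13.8% of all transcripts, and the median log2 change was -0.70. Aurka, a mitotic kinase that stabilises Myc proteins, had means of 28.8 and 4.47 FPKM (log2 change -2.55 ± 0.36, SE, limma adjusted p 0.00196). Skp2, a ubiquitin ligase subunit, had 24.7 and 7.84 FPKM (-1.56 ± 0.24, SE, limma adjusted p 0.00273). Aurka and Skp2 are themselves expressed in dividing cells. Of 14 proteins that bind Myc mRNA 11 were tested, and 1 was lower and 0 higher, beside the 15.8% and 13.8% of all transcripts, with a median log2 change of 0.07. It was Khsrp, which promotes decay of AU-rich mRNAs, with 93.4 and 47.6 FPKM (-0.95 ± 0.21, SE, limma adjusted p 0.0123), and its adjusted p was 0.0583 without OPC replicate 3, 0.0817 without OL replicate 1 and 0.0637 without OL replicate 2. In half-life 0 of the 11 were called by limma, where 3.39% of all transcripts were called longer and 0.148% shorter, and 2 were at the ceiling in every replicate. An unadjusted p under 0.05 was found for 2 of the 11, both shorter in OLs, and for 1866 of all 8112 transcripts in either direction. The median log2 change in half-life was -0.07, beside 0.37 over all transcripts. Of the further partners of Max and Mlx, Mlxip had 5.97 and 4.89 FPKM (log2 change -0.24 ± 0.23, SE, limma adjusted p 0.455), Mxd3 was listed for OPCs alone and Mlxipl was not analysed here.

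The transcripts most like Myc and Mycl were found by Pearson's r of log2(FPKM + 1) across all 25 libraries, among 7561 transcripts with a mean 0 h level of at least 5 FPKM. The libraries of 1 replicate are not independent of each other and each carries its own scale, so r is a description. Closest to Myc were Insyn2a (r = 0.955), Trib1 (0.947) and Zfp319 (0.944), which had means of 7.73, 26.0 and 16.2 FPKM at 0 h in OPCs and 5.34, 8.63 and 12.01 FPKM in OLs. Closest to Mycl were Snx18 (r = 0.975), Rnf144a (0.971) and Slc45a4 (0.970), with 29.5, 18.7 and 16.6 FPKM in OPCs and 131, 57.9 and 52.6 FPKM in OLs. All 3 transcripts near Myc were thus lower in OLs and all 3 near Mycl higher, as the measure rewards.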

How the data were processed

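Labelled RNA was measured in 25 libraries (15 OPC, 10 OL), and 1 OPC control without biotin was not analysed here, so background on the beads was not subtracted. Adapters were removed by the authors (fastx_clipper), HISAT2 2.1.0 was their aligner, on GRCm38, and they tabulated FPKM with StringTie 1.3.5 and ballgown over canonical coding transcripts of GENCODE vM9 with at least 1 FPKM at 0 h, without a strand option. The methods also name 0 FPKM at 1 and 2 h as a filter, and 0% of listed values were 0 at those times. The deposited FPKM at 0 h carry their original decimals and were read as unscaled, although the methods describe scaling at each time point, and later time points as scaled by the authors to a labelled spike-in of LYSa and luciferase. The deposited half-life tables, a score in hours with no fixed range, were fitted by the authors as single exponentials by least absolute deviations, and values above 6 h were set to 6 h here. A refit fell within 0.01 h for 98.2% to 99.9% of transcripts. Read counts, and so the depth of each library, are unknown, and no counting error is given.

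Groups were taken from the titles, which give cell type, replicate and chase time. Where nothing says that replicates came from separate derivations, p-values measure the spread between these samples. Tests were limma 3.58.1 (R 4.3.3) across all transcripts, two-sided, with Benjamini-Hochberg adjustment and a threshold of 0.05, on log2 half-life, on log2(FPKM + 1) at 0 h, on slopes within a cell type with replicate intercepts, and on 1 slope per replicate between cell types. The steps were tested on simulated data. Alternatives were a pseudocount of 0.1, a filter of 5 FPKM, median scaling, refits by least squares or without 6 h, leaving out each replicate, and a replicate block. Named list genes were those past the threshold in half-life and, for each list, at most 3 with the largest change past it at 0 h. Of the genes this rule names, 1 is not reported here. The members and lists were chosen with earlier results of these data known. No tests over lists were run.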

Additional observations from a re-analysis of the deposited data

Results flagged for a closer look

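The chase slope of Max differed between the cell types by a test of the difference, with 0.31 log2 units per h more in OLs (limma, adjusted p 0.0214, 3 OPC against 2 OL replicates). The fall was slower in both OL replicates than in all 3 OPC replicates, as for 4 of the 8 members. Over all transcripts 23.7% were called slower in OLs, with a median difference of 0.14, so 1 call among 8 members is no more than that share. The adjusted p ranged from 0.0119 to 0.466 over the alternatives. Groups of 3 and 2 replicates were too small for a test of outlying samples.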

How the results depend on the processing

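FPKM without read counts gives no depth, so low members such as Mnt carry an unknown counting error. Of the members tested, the number past the threshold in half-life was 0, and 0 to 1 when 1 replicate was left out. At 0 h it was 4 (1 to 5, with 1 without OL replicate 1 and 2 without OL replicate 2), for the fall in OPCs 9 (9 to 9), for the fall in OLs 8 (6 to 8, without Myc and Mnt when OL replicate 2 was left out) and for the slope difference 1 (0 to 2, with 0 without OL replicate 1 or 2). Scaling each library to its 0 h median left 2 falls in OPCs, 3 in OLs and 0 slope differences, a scale that removes the shared fall by construction. The filter of 5 FPKM left 5 members to test in OPCs, and all 5 fell. A pseudocount of 0.1 left 0 slope differences, and without the 6 h libraries there was 1, Myc in place of Max. The cause was not tested for either. Over all transcripts, 287 half-life calls became 1 when centred, 13 in refits without 6 h, 24 by least squares and 167 to 236 with 1 replicate left out. The 2421 calls at 0 h became 896 to 2605 with 1 replicate left out, and the 1944 slope differences became 569 with a pseudocount of 0.1, 135 under library scaling, 1240 without 6 h and 0 to 2209 with 1 replicate left out. Falls in OLs went from 6668 to 4556 without 6 h. Which OPC replicates share starting cells with which OL replicates is not given in the sources used here, so the numbers were not taken as pairs. The difference between OPC replicates 1 and 2 was correlated across transcripts with that between OL replicates 1 and 2. The values were -0.0594 for half-lives, 0.0375 for 0 h levels and -0.0709 for slopes. Matchings with OPC replicate 3 were not tried, so these values cannot settle the pairing. With a replicate block, slope differences were called for 2 members, adding Myc (0.30, adjusted p 0.0230), with 0 in half-life and 4 at 0 h, and over all transcripts 0 half-life calls, 1932 at 0 h and 2286 slope differences were made. Directions turned as follows, and none of these values passed the threshold. With half-lives centred on the median, the log2 change was -0.63 for Mxd1, -0.27 for Mlx, -0.30 for Mxi1, -0.58 for Mxd4 and -0.55 for Max. Refits without 6 h gave -0.26 for Mxi1 and -0.35 for Mxd4, and least squares gave -0.086 for Mxd4. Under library scaling the slope in OPCs was 0.025 for Mlx and 0.036 for Mxd4, in OLs it was 0.017 for Mnt, 0.0080 for Mlx, 0.023 for Myc and 0.00067 for Mxi1, and the difference was -0.017 for Mlx, -0.12 for Mxd4 and -0.13 for Mga. With 1 replicate left out the half-life change of Mga ran from -0.70 to 0.15 (without OL replicate 2 and 1), its slope difference from -0.027 to 0.11 (without OPC replicate 2 and 1) and that of Mxd1 from -0.00030 to 0.057 (without OPC replicate 3 and OL replicate 2), and with the block that of Mxd1 was -0.00030.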
